A study of Homo sapiens with 13 samples.

Results

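The ATP-binding cassette (ABC) transporters were examined in 13 acute lymphoblastic leukemia (ALL) cell lines, 7 derived from T-cell ALL (T-ALL) and 6 from B-cell precursor ALL (BCP-ALL). Members were the genes whose symbol starts with ABCA to ABCG and a digit, pseudogenes left out, with each gene read through its probe set of highest mean. This gave 41 of the 18568 genes measured, from 88 probe sets, with 11 ABCA, 8 ABCB, 10 ABCC, 3 ABCD, 1 ABCE, 3 ABCF and 5 ABCG genes. T-ALL was represented by Molt4, Jurkat, TALL-1, HPB-ALL, ALL-SIL, P12-ICHIKAWA and CCRF-CEM, and BCP-ALL by REH, 697, RS4,11, Nalm30, Nalm16 and Nalm6. All are established human leukemia lines that received no drug, and each was measured on 1 Affymetrix HG-U133 Plus 2.0 array, so that the lines themselves are the replicates of a lineage and no line has a technical replicate.

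ABC transporters are membrane proteins that bind and hydrolyse ATP to move substrates across a membrane. The ABCA and ABCG subfamilies are known for lipid and sterol transport, ABCB and ABCC for drug, conjugate, peptide and bile salt export, and ABCD for peroxisomal and lysosomal transport. ABCE and ABCF proteins share the ATP-binding domains but lack a membrane part and act on ribosomes. In ALL treatment the family is known for drug export: ABCC1 to ABCC5 and ABCG2 carry methotrexate out of the cell before it gains its glutamate tail, and the enzyme FPGS adds that tail and so retains the drug. The study also recorded the methotrexate IC50 of these lines, but those values were not used here, so no exporter was set against drug response.

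Expression values are on a log2 scale, with 16 added to each signal before the logarithm. Each value is a mean over a whole culture, so fewer expressing cells and less RNA per cell cannot be told apart. The lowest possible value is 4, differences of low genes are compressed, and a value less than 1 log2 unit above it is described as near the floor. The array medians lay between 5.15 and 5.32 in T-ALL lines and between 5.05 and 5.37 in BCP-ALL lines. The lineage labels were borne out by markers. The mean of 8 T-cell precursor genes was 8.69 to 10.1 in T-ALL lines and 4.74 to 5.12 in BCP-ALL lines, and that of 7 measured B-cell precursor genes was 4.42 to 5.30 in T-ALL lines and 9.88 to 10.5 in BCP-ALL lines. The mean of 4 measured myeloid genes reached 5.71 in T-ALL lines and 7.27 in BCP-ALL lines, and that of 4 liver and gut genes reached 4.88 in T-ALL lines and 5.95 in BCP-ALL lines. The part of these cell programmes in the results was not tested.

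Nalm16 and Nalm30 stood apart from the rest. Over all probe sets their arrays correlated with each other at r = 0.959 and with the other 11 arrays at r = 0.770 to 0.879, whereas P12-ICHIKAWA and TALL-1 correlated at r = 0.993, above the range of the other pairs, which was 0.870 to 0.956. By the study's methods the lines of each pair came from the same provider, as did other lines. Whether the lines of a pair are independent of each other was not tested, so the n of each lineage may overstate its independent lines. The calls are given also without Nalm16 and Nalm30 and with P12-ICHIKAWA and TALL-1 averaged. Other differences are given in this way for some genes only, and genes without such values may also depend on a pair.

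The family held genes well above the array median in all lines and genes near the floor in all of them. Of the 41 genes, 11 (26.8%) lay above the median of their array in every line, against 40.4% of all genes measured. These were ABCB5, ABCB8, ABCC1, ABCC5, ABCC10, ABCD3, ABCD4, ABCE1, ABCF1, ABCF2 and ABCF3. Another 12 (29.3%) lay above the median in no line, against 21.7% of all genes, namely ABCA6, ABCA8, ABCA9, ABCA13, ABCB11, ABCC2, ABCC3, ABCC11, ABCC12, ABCD2, ABCG4 and ABCG8. The remaining 18 were above it in some lines. These classes are those of the probe set of highest mean, and other probe sets did not always share them. The other ABCB5 probe sets were above the median in 7, 1 and 0 lines, and the second ABCD4 probe set in 0. The second probe sets of ABCB8, ABCC1 and ABCE1 were above it in all 13 lines. The subfamilies differed in make-up. All 4 ABCE and ABCF genes were above the median in every line, whereas none of the 11 ABCA and none of the 5 ABCG genes was. A value below the median does not show that a gene is silent, since 11 members were within 1 log2 unit of the floor in every line and cannot be told from background there.

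**Figure D1:**
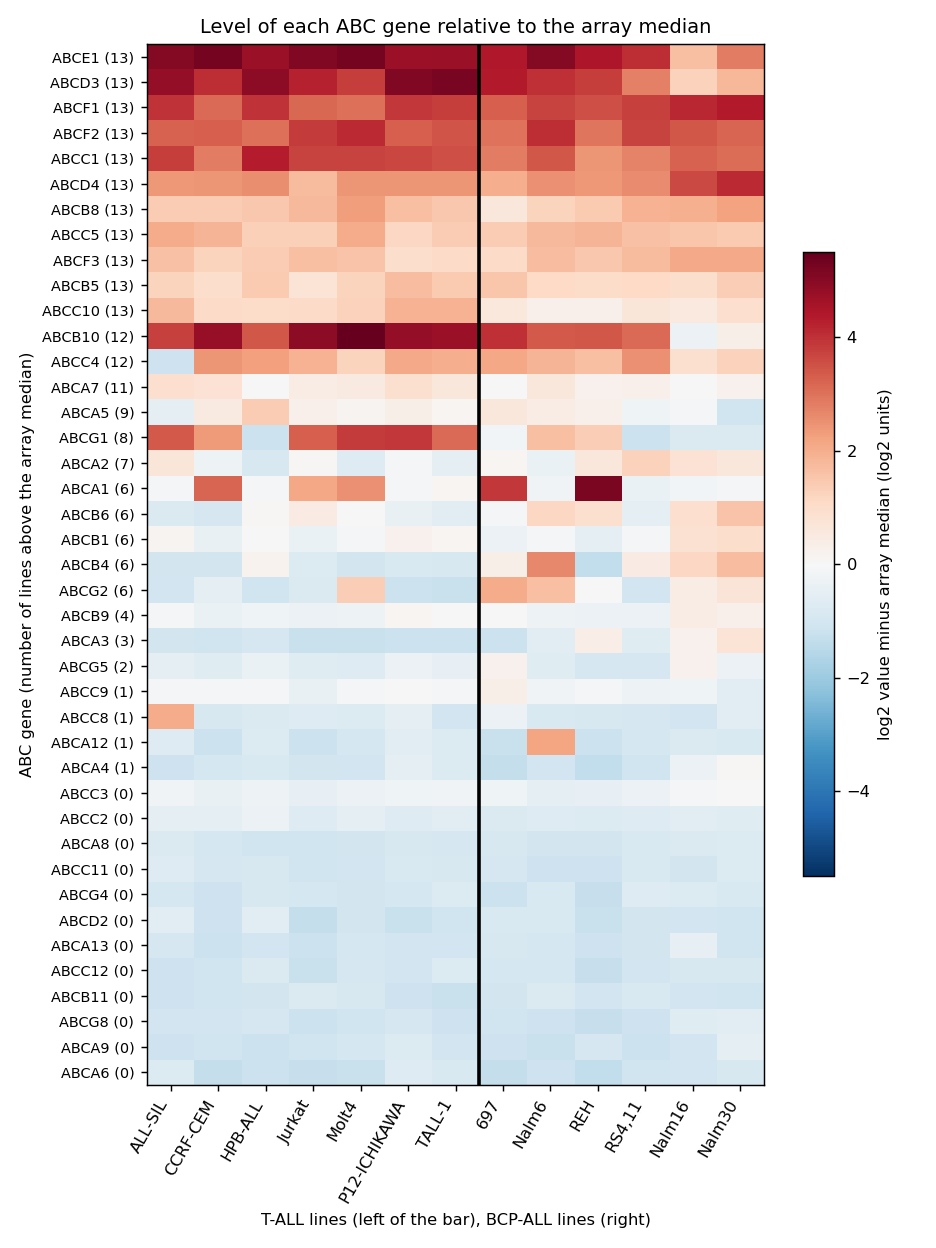
Level of the 41 ABC genes (rows, ordered by the number of lines above the array median, given in brackets) in 7 T-ALL and 6 BCP-ALL lines (columns), as log2 value minus the median of that line's array. The upper 11 rows are above the median in all 13 lines, the lowest 12 rows in none, and ABCB10, ABCD3 and ABCE1 are paler in Nalm16 and Nalm30 than in the other lines.

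Promoter sequence was read for the members because the 3 genes that were low together in Nalm16 and Nalm30, described further on, could be set side by side. RefSeq windows on GRCh38.p14, from 250 bases before to 50 bases after the first listed start of a gene, were on hand for 33 of the 41 members. The 3 windows are printed 5′ to 3′ on the gene's strand with each CG dinucleotide in capitals. They are ABCB10 (chr1:229558658-229558957, minus strand), ABCD3 (chr1:94418139-94418438, plus strand) and ABCE1 (chr4:145098061-145098360, plus strand).
ABCB10: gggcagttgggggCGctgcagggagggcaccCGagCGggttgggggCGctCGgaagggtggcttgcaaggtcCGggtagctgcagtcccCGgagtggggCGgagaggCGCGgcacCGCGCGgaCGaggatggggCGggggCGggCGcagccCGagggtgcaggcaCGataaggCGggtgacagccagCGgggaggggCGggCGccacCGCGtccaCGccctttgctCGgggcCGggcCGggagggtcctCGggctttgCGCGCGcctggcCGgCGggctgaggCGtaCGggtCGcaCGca
ABCD3: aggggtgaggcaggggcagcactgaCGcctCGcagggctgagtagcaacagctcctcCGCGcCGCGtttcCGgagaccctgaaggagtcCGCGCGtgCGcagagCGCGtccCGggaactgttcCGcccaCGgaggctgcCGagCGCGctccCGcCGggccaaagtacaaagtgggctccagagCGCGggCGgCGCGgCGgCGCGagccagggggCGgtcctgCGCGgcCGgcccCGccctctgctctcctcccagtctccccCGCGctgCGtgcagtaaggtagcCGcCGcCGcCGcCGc
ABCE1: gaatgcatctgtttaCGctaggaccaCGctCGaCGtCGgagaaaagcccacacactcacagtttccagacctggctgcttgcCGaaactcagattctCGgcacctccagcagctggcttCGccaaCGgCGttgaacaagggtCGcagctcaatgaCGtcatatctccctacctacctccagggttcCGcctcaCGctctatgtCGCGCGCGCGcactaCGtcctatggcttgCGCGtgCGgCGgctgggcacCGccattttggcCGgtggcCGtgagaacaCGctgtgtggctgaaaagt
The 3 windows held 39, 42 and 28 CG dinucleotides in that order, against a median of 14 over all 27305 promoters of the same length. High counts were not particular to these 3 genes. Of the members highest in Nalm16 and Nalm30, ABCF1 and ABCF3 held 37 each, ABCD4 and ABCB9 24 each, and ABCB1 1. The GC box GGGCGG, searched on both strands, was in the ABCB10 and ABCD3 windows and not in that of ABCE1. It was also in the windows of ABCF1, ABCF3, ABCD4 and ABCB9 and not in that of ABCB1.

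The CG counts are set out by expression class as a description, with no test. Windows of the 9 genes above the array median in every line had a median of 28 CG dinucleotides (range 15 to 42), those of 14 genes above it in some lines had a median of 23, and those of 10 genes above it in no line had a median of 3 (range 1 to 26). The GC box was found in 8 of 9, 8 of 14 and 2 of 10 windows of these classes, and in 44.6% of all promoters. Of the methotrexate exporters, ABCC2, which was above the median in no line, had 1 CG dinucleotide in its window, ABCG2 had 3, ABCC5 had 26 and ABCC4 had 47. No window was on hand for ABCC1 and ABCC3, so the exporters are covered in part only. These are counts of letters in one window per gene, and a gene may start elsewhere in these cells.

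**Figure D2:**
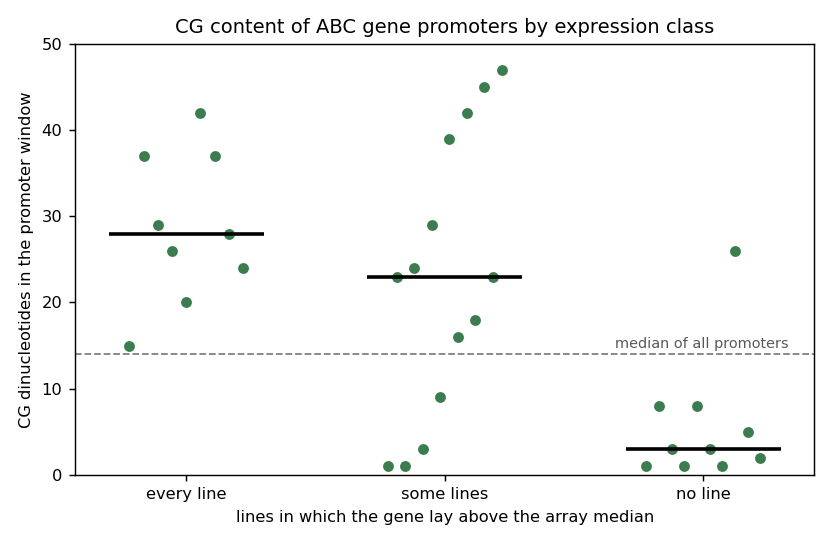
CG dinucleotides in the 300-base promoter window of each of 33 ABC genes (points; y axis, count) by the lines in which the gene lay above the array median (x axis). Black bars are class medians of 28, 23 and 3, and the dashed line is the median of 14 over all 27305 promoters.

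The lineages were compared with limma in the 24 members that were above the array median in at least 3 lines, with p-values adjusted over all 12560 genes that passed this filter. The other 17 members were not tested. In T-ALL lines 2 members were higher (8.33% of those tested, against 3.96% of all genes) and 1 was lower (4.17%, against 3.67%). The differences were 12 positive and 12 negative, with a median of -0.06 log2 units, against 0.03 over all genes. At an unadjusted limma p under 0.05, 7 members were higher and 5 lower, which is 50% of the members tested, against 25.3% of all genes tested. Part of that share turned on Nalm16 and Nalm30. Without them the unadjusted limma p was 0.0501 to 0.178 for ABCA2, ABCA7, ABCB6, ABCE1 and ABCG2, and ABCA3 was not tested. The share of all genes in that fit is not given here, so no excess in the family is concluded. The values of single lines overlapped between lineages in all but 1 of the 24 genes (4.17% did not overlap, against 3.69% of all genes).

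ABCC10 (MRP7), an exporter of conjugates and of taxane drugs, was that gene. Its log2 value was 6.22 at the lowest, 6.50 at the median and 7.13 at the highest in T-ALL lines, against 5.51, 5.77 and 6.03 in BCP-ALL lines. Every T-ALL line was above every BCP-ALL line. Mean levels were 6.66 ± 0.379 in T-ALL (SD, n = 7) and 5.76 ± 0.217 in BCP-ALL (SD, n = 6), a difference of 0.90 log2 units (SE 0.188, limma adjusted p = 0.0103), which is 1.86-fold on this scale. A second ABCC10 probe set differed in the same direction, by 0.54. In that probe set the lineages overlapped, with HPB-ALL at 5.66 and Nalm30 at 5.68. The call held in each of 24 alternative settings, with adjusted p between 0.00741 and 0.0416, and the difference was 0.92 without Nalm16 and Nalm30 and 0.82 with P12-ICHIKAWA and TALL-1 averaged.

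ABCC1 (MRP1), which exports glutathione conjugates and methotrexate, was higher in T-ALL as well. It ran from 8.12 through a median of 8.94 to 9.50 in T-ALL lines, and from 7.81 through a median of 8.15 to 8.62 in BCP-ALL lines. Only CCRF-CEM among the T-ALL lines fell within the BCP-ALL range, and HPB-ALL was highest. The means were 8.89 ± 0.411 in T-ALL (SD, n = 7) and 8.16 ± 0.279 in BCP-ALL (SD, n = 6), 0.73 log2 units apart (SE 0.206, limma adjusted p = 0.0468). This call stood close to the threshold and was lost in 19 of 24 alternatives, with adjusted p up to 0.124, although the difference stayed between 0.62 and 0.86. It was lost on leaving out any single line other than Nalm6 or CCRF-CEM, on leaving out Nalm16 and Nalm30 together (0.76, adjusted p = 0.0984) and on averaging P12-ICHIKAWA and TALL-1 (0.74, adjusted p = 0.0798). The second ABCC1 probe set gave 0.80.

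ABCA3, a lipid transporter of the lamellar bodies of lung cells, was the member lower in T-ALL. All 7 T-ALL lines were near the floor, at 4.0 to 4.28 with a median of 4.09, and BCP-ALL lines ran from 4.13 through 4.95 to 5.83. Only REH, Nalm16 and Nalm30 were above their array medians, so the gene entered the test through these 3 BCP-ALL lines and had to differ. The means were 4.11 ± 0.0998 in T-ALL (SD, n = 7) and 5.03 ± 0.687 in BCP-ALL (SD, n = 6), a difference of -0.92 (SE 0.256, limma adjusted p = 0.0441). The T-ALL values at the floor give the true level only an upper bound. The call was lost in 10 of 18 alternatives that kept the gene, among them each that left out 1 T-ALL line and the one that averaged P12-ICHIKAWA and TALL-1 (adjusted p = 0.0842). In the other alternatives ABCA3 no longer passed the filter, so no call was made there either. These left out REH, Nalm16 or Nalm30, averaged or left out Nalm16 and Nalm30, or filtered on the mean. Without Nalm16 and Nalm30 the difference of means was -0.66.

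**Figure D3:**
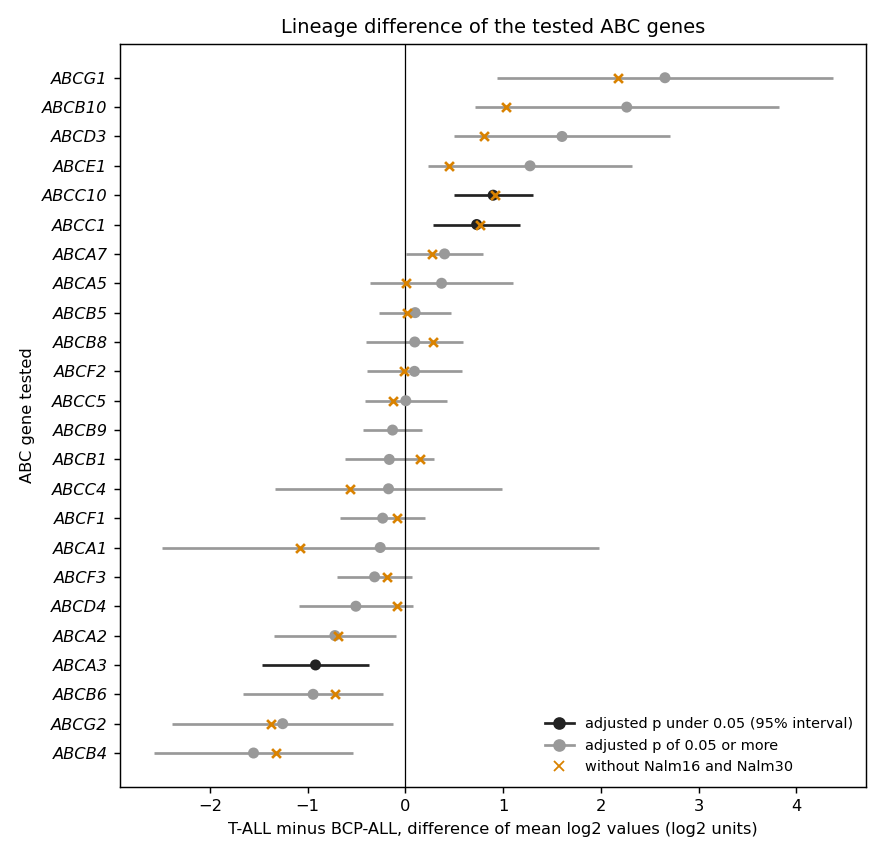
Difference between T-ALL and BCP-ALL mean log2 values (x axis, log2 units, positive where T-ALL is higher) for the 24 ABC genes tested, with 95% intervals of limma, and the same difference without Nalm16 and Nalm30 (crosses). ABCC10, ABCC1 and ABCA3 (black) passed an adjusted p of 0.05, and the crosses of ABCB10, ABCD3 and ABCE1 lie nearer to 0 than their points.

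Of the 6 methotrexate exporters, ABCC1 was the member that passed the lineage test, 3 others were tested and 2 were too low to be tested. ABCC4 (MRP4), which also exports cyclic nucleotides, was 4.0 at the lowest, 7.23 at the median and 7.77 at the highest in T-ALL lines, against 5.92, 7.06 and 7.78 in BCP-ALL lines. The lowest value belonged to ALL-SIL, at the floor, while all other lines lay above their array medians. In 2 further ABCC4 probe sets ALL-SIL was again the lowest line, at 4.61 and 4.21. The lineage difference was -0.17 (95% interval -1.34 to 0.99, limma adjusted p = 0.877). It was 0.29 without ALL-SIL, and -0.57 without Nalm16 and Nalm30 (limma adjusted p = 0.678).

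ABCC5 (MRP5) varied little in its probe set of highest mean and more in its other probe sets. It spanned 6.37 to 7.27 in T-ALL lines, with a median of 6.64, and 6.54 to 7.22 in BCP-ALL lines, with a median of 6.78. The difference of 0.00 had a 95% interval of -0.42 to 0.43. A second probe set ran from 5.36 to 7.12 over all lines, and another from 4.40 in HPB-ALL to 6.99 in Nalm6, with 4 lines near the floor. ABCC2 and ABCC3, exporters best known from liver and gut, were above the array median in no line in their probe sets of highest mean. Another ABCC3 probe set was above it in 2 lines, at 5.17 in Nalm16 and 5.17 in Nalm30. In the probe sets of highest mean the levels were as follows. ABCC2 lay between 4.50 and 4.87 in T-ALL lines and between 4.41 and 4.60 in BCP-ALL lines, and ABCC3 between 4.86 and 5.03 in T-ALL lines and between 4.70 and 5.10 in BCP-ALL lines.

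ABCG2 (BCRP), an exporter of many anticancer drugs, differed strongly from line to line. In T-ALL lines it was 4.0 at the lowest, 4.10 at the median and 6.57 at the highest, against 4.21, 5.62 and 7.36 in BCP-ALL lines. Molt4 was the one T-ALL line above its array median, and RS4,11 the one BCP-ALL line below it. The difference was -1.26 (95% interval -2.39 to -0.12) and did not pass the test across all genes (limma adjusted p = 0.157). ABCB1 (P-glycoprotein), the classical multidrug exporter, stayed between 4.89 and 5.47 in T-ALL lines and between 4.87 and 6.07 in BCP-ALL lines, with the upper 2 values in Nalm16 and Nalm30. Its second probe set was near the floor in 12 of 13 lines and highest, at 5.40, in CCRF-CEM, so the probe sets do not agree on the line of highest level.

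**Figure D4:**
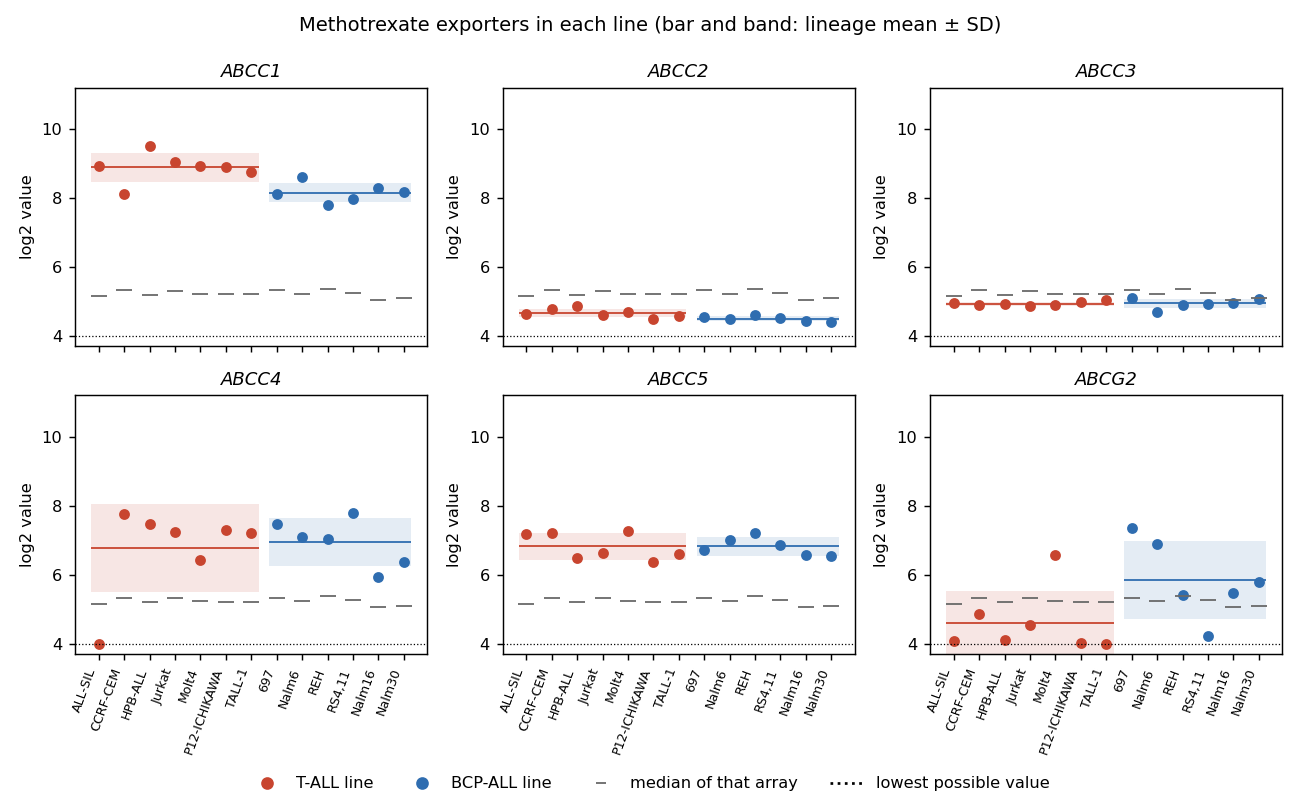
Log2 value (y axis) of the 6 methotrexate exporters in each line (x axis; T-ALL lines left, BCP-ALL lines right), with the lineage mean and SD (bar and band), the median of each array (grey dashes) and the lowest possible value of 4 (dotted). ABCC1 and ABCC5 lie above the array median in all 13 lines, ABCC2 and ABCC3 in none, ABCC4 in all but ALL-SIL, and ABCG2 in 6 lines.

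The uptake and retention side of methotrexate handling was read from 5 genes outside the family: SLC19A1, SLC46A1, SLC25A32, FPGS and GGH. All 5 were tested and 1 was lower in T-ALL, the direction in which 3.67% of all genes tested passed. FPGS, which adds the glutamate tail, averaged 8.07 ± 0.443 in T-ALL (SD, n = 7) and 9.02 ± 0.147 in BCP-ALL (SD, n = 6), a difference of -0.95 (SE 0.199, limma adjusted p = 0.0102). Every T-ALL line was below every BCP-ALL line, with 8.57 the highest in T-ALL and 8.89 the lowest in BCP-ALL. P12-ICHIKAWA and TALL-1 were the lowest lines, at 7.56 and 7.42. The call held in each of 24 alternatives, with adjusted p between 0.00446 and 0.0378, and the difference was -0.86 with that pair averaged and -0.93 without Nalm16 and Nalm30.

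Of 6 sterol and phospholipid transporters, 5 were tested. None passed other than ABCA3, which entered the test only through lines in which it was high. ABCG1, which moves cholesterol out of the cell to high-density lipoprotein, had the widest lineage gap of the members tested and still did not pass. It was 4.01 at the lowest, 8.54 at the median and 9.09 at the highest in T-ALL lines, against 4.07, 4.74 and 6.89 in BCP-ALL lines. In T-ALL, 6 of 7 lines were at 7.64 or more, above every BCP-ALL line, and HPB-ALL was at the floor. The difference was 2.66 (SE 0.797, limma adjusted p = 0.0597). The call was missed in 19 of 24 alternatives, among them the exact permutation test (adjusted p = 0.114), the fit without Nalm16 and Nalm30 (2.18, adjusted p = 0.226) and that with P12-ICHIKAWA and TALL-1 averaged (2.52, adjusted p = 0.114). It was made without HPB-ALL (3.30, adjusted p = 0.00195), Nalm6 (2.99, adjusted p = 0.0428) or REH (2.96, adjusted p = 0.0425), with the mean of all probe sets (2.07, adjusted p = 0.0477) and with quantile normalization (2.65, adjusted p = 0.0496). The second ABCG1 probe set was again low in HPB-ALL, at 4.55, and 6.10 to 6.99 in the other T-ALL lines.

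ABCA1, which hands cholesterol and phospholipid to apolipoprotein A-I, varied by 5.66 log2 units over the lines, within both lineages. It was 5.10 at the lowest, 5.32 at the median and 8.51 at the highest in T-ALL lines, against 4.89, 5.02 and 10.55 in BCP-ALL lines. The lines fell into a high set, with 8.51 in CCRF-CEM, 7.76 in Molt4, 7.45 in Jurkat, 10.55 in REH and 9.23 in 697, and the other lines at 5.32 or below. A second ABCA1 probe set was highest in the same 5 lines, at 4.99 to 7.10. The lineage difference was -0.26 (95% interval -2.50 to 1.98, limma adjusted p = 0.905). Without Nalm16 and Nalm30, both low for ABCA1, it was -1.08 (limma adjusted p = 0.685).

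The high lines of ABCA1 and ABCG1 coincided in part. CCRF-CEM, Jurkat and Molt4 were high for ABCA1 and read 7.64, 8.61 and 9.06 for ABCG1. REH and 697 had the highest ABCA1 and read 6.74 and 5.18 for ABCG1, whereas P12-ICHIKAWA had the highest ABCG1, at 9.09, with ABCA1 at 5.15. Of the other lipid transporters tested, ABCA2, found in lysosomes, was 4.34 to 5.82 in T-ALL lines and 4.84 to 6.53 in BCP-ALL lines (difference -0.72, limma adjusted p = 0.141). ABCA7 was 5.21 to 6.13 in T-ALL lines and 5.04 to 5.83 in BCP-ALL lines (difference 0.40, adjusted p = 0.190). The 7 measured sterol regulators included the sterol sensor gene NR1H3 and the SREBF1 and SREBF2 factors. Of the 7, 6 were tested and none passed, against 3.96% of all genes tested passing as higher in T-ALL and 3.67% as lower.

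ABCB4 was the only 1 of 5 bile and sterol exporters high enough to be tested. It encodes the phosphatidylcholine translocator of the bile canaliculus in liver. In T-ALL lines it was 4.12 at the lowest, 4.33 at the median and 5.40 at the highest, against 4.03, 5.94 and 7.85 in BCP-ALL lines. HPB-ALL was the one T-ALL line above its array median, and REH the one BCP-ALL line below it. The difference was -1.56 (SE 0.473, limma adjusted p = 0.0626), and without Nalm16 and Nalm30 it was -1.33 (adjusted p = 0.216). Of 23 alternatives, the one without REH made the call (-1.96, adjusted p = 0.00633). A probe set shared by ABCB4 and ABCB1 was also highest in Nalm6, at 7.64, and at the floor in REH.

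ABCB10, ABCD3 and ABCE1 were low together in Nalm16 and Nalm30. ABCB10, a mitochondrial inner-membrane transporter tied to heme synthesis, was 8.63 at the lowest, 10.03 at the median and 10.73 at the highest in T-ALL lines, against 4.73, 8.48 and 9.34 in BCP-ALL lines. Nalm16 (4.73) and Nalm30 (5.40) were more than 2 log2 units below all other lines, the lowest of which was 8.37. The lineage difference was 2.26 (SE 0.723, limma adjusted p = 0.0744), and 1.03 without the pair (adjusted p = 0.157).

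ABCD3, which brings branched-chain acyl-CoA and bile acid precursors into peroxisomes, behaved likewise. It was 9.04 at the lowest, 9.97 at the median and 10.41 at the highest in T-ALL lines, against 6.30, 8.59 and 9.67 in BCP-ALL lines. The lowest 2 values were those of Nalm16 and Nalm30, below the 8.02 of RS4,11. The difference of 1.60 (SE 0.513, limma adjusted p = 0.0750) was 0.80 without the pair. Its second probe set differed by 1.61.

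ABCE1, which splits ribosomes into their subunits after translation ends, was 9.92 to 10.57 in T-ALL lines and 6.68 to 10.25 in BCP-ALL lines. The difference of 1.28 (SE 0.486, limma adjusted p = 0.127) was 0.45 without Nalm16 and Nalm30, which read 6.68 and 7.89 while no other line was below 9.30. None of the 3 genes passed the lineage test with or without the pair. Without 697, ABCB10 (2.63, adjusted p = 0.0469) and ABCD3 (1.89, adjusted p = 0.0386) did, and ABCD3 also did with the mean of all probe sets (1.61, adjusted p = 0.0496).

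Other members went the opposite way in these lines. ABCD4, which exports cobalamin from lysosomes, was 8.67 in Nalm16 and 9.17 in Nalm30, against 7.05 to 7.87 elsewhere. ABCF1, a translation factor of the family, was 9.20 and 9.45 in the same lines and at most 9.17 elsewhere. In their probe sets of highest mean, ABCB1, ABCB9 and ABCF3 were likewise highest in both. For ABCB9 the margin was small, with 5.38 in Nalm30 against 5.36 in 697. In another ABCB9 probe set Nalm16 and Nalm30 read 4.22 and 4.45, against 5.61 in RS4,11. In the second ABCB1 probe set they read 4.14 and 4.36, against 5.40 in CCRF-CEM. The second ABCD4 probe set was near the floor in all 13 lines. In all, both lines were below every other line for 3 of the 24 members tested (12.5%) and above every other line for 5 (20.8%). Over all genes tested these shares were 20.5% and 12%, so genes low in both lines were no more frequent in the family than on the arrays at large. Among 4031 genes with a mean log2 value of at least 8, 28.3% were below every other line in both. The 12.5% of members is not the like share, since it covers members of all levels. Members at that level were ABCB10, ABCD3 and ABCE1, which were low in both, and ABCC1, ABCF1 and ABCF2, which were not. Of the controls of RNA integrity, the 3′ minus 5′ difference of GAPDH was 0.209 in Nalm16 and 0.102 in Nalm30, within or just above the -0.0709 to 0.178 of the other lines. That of ACTB was 0.400 and 0.542 in the same lines, within the 0.0933 to 0.572 of the others. Their part in these values was not tested.

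**Figure D5:**
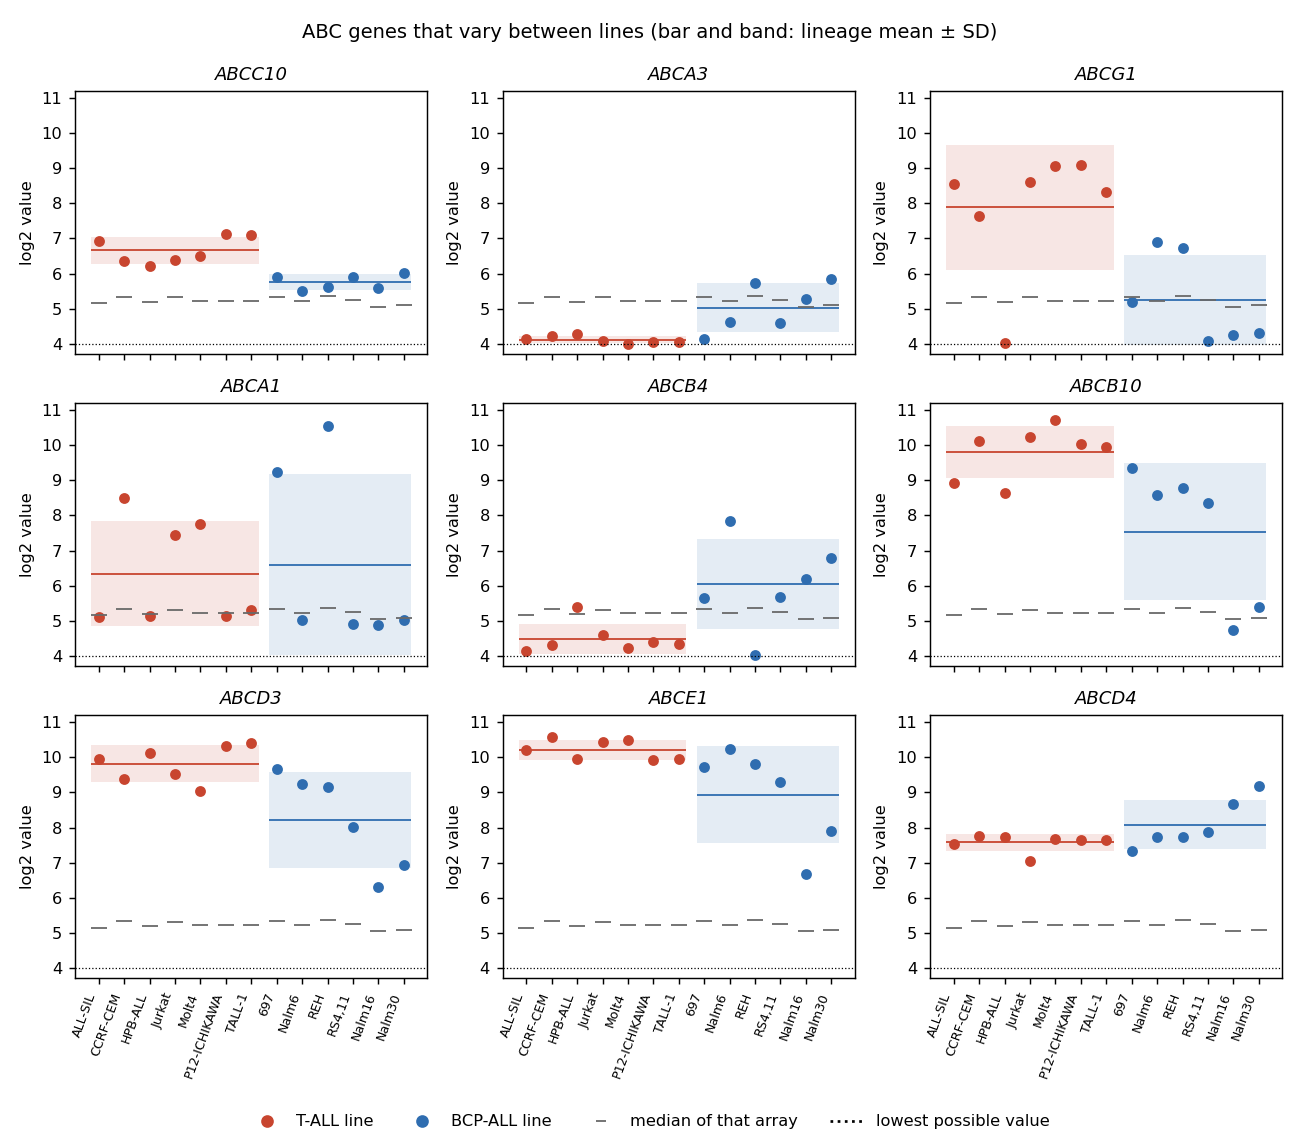
Log2 value (y axis) of 9 ABC genes that vary between lines, by line (x axis; T-ALL lines left, BCP-ALL lines right), with the lineage mean and SD (bar and band), the median of each array (grey dashes) and the lowest possible value of 4 (dotted). ABCC10 separates the lineages, ABCG1 is at the floor in HPB-ALL, ABCA1 is high in 5 lines, and Nalm16 and Nalm30 are lowest for ABCB10, ABCD3 and ABCE1 and highest for ABCD4.

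The remaining organelle and ribosome genes did not pass the lineage test. Of 3 measured mitochondrial members, all were tested and none passed. ABCB6, which is linked to porphyrin transport, was 4.33 to 5.79 in T-ALL lines and 4.73 to 6.64 in BCP-ALL lines (difference -0.95, limma adjusted p = 0.101), and passed only without RS4,11 (-1.17, adjusted p = 0.0376). None of the 4 lysosomal members and none of the 4 ribosome-acting members passed. ABCF2 was 8.23 to 9.34 in T-ALL lines and 8.31 to 9.27 in BCP-ALL lines, with a 95% interval of the difference from -0.40 to 0.58. Of 12 genes whose products work with ABC proteins, such as PEX19 for ABCD3, LMBRD1 for ABCD4 and PELO for ABCE1, 10 were tested and none passed. Over all genes tested 3.96% passed as higher in T-ALL and 3.67% as lower. Lists this small would hold few or no passing genes at those shares.

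Some members were low in nearly all lines and high in a single one. ABCC8, the sulfonylurea receptor of the pancreatic potassium channel, was 7.19 in ALL-SIL and 4.0 to 4.98 in all other lines. A second ABCC8 probe set read 4.33 in ALL-SIL. ABCA12, a lipid transporter of skin keratinocytes, was 7.40 in Nalm6 and 4.09 to 4.64 in all other lines. Neither gene was tested between lineages. By Dixon's criterion 1 line stood apart in 8 of 82 sets of 1 member in 1 lineage (9.76%), against 9.62% of such sets over all genes measured.

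ABC genes that carry other symbols were read as well. None of TAP1, TAP2 and CFTR passed the lineage test. TAP1 and TAP2, which carry peptides from the cytosol into the endoplasmic reticulum for MHC class I, were above the array median in all 13 lines. CFTR, the chloride channel of epithelia, was chosen for mention after its values were seen. It read 9.82 in ALL-SIL, at most 5.38 in the other T-ALL lines and at most 4.06 in BCP-ALL lines.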

How the data were processed

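RNA of 13 untreated ALL cell lines was hybridised to HG-U133 Plus 2.0 arrays, 1 per line. The authors deposited log2 values made with iterPLIER+16 in Affymetrix Expression Console, with version and scaling between arrays not given in the sources used here. In all, 42450 probe sets were deposited. By the platform annotation 38125 had a single gene symbol, 1742 had several and 2583 had none, and only the first kind was used. Each gene took its probe set of highest mean; ABC pseudogenes (4) were left out. Genes above the array median in at least 3 lines (12560) were fitted with limma 3.58.1 in R 4.3.3 (lmFit and eBayes, T-ALL minus BCP-ALL, no covariate), with Benjamini-Hochberg adjustment over all of them at 0.05. P-values measure the spread between lines, whose number limits the precision. Steps in Python 3.11.15 used numpy 2.4.6, pandas 2.3.3 and matplotlib 3.10.9. The fit was tested on simulated data. The members, lists and tests were chosen with earlier results of these data known. Named were the methotrexate exporters, ABCB1, members that passed, the 5 with the largest difference in each direction, the 8 with the highest mean, the 8 with the widest range, members with 1 line apart from its lineage, and listed partner and other ABC genes that passed; further names only list the members of a class or list or belong to genes singled out after their values were seen. Alternatives covered normalization, filter, probe set, variance model, test, and lines left out or averaged.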

Additional observations from a re-analysis of the deposited data

Results flagged for a closer look

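In 8 of 82 sets of values (1 gene in 1 lineage) a single line lay far from the others by Dixon's criterion. That is 9.76% of the sets, against 9.62% over all genes measured. Chance alone would flag about 1 in 20 sets of normally distributed values, a rate that need not hold for these values or near the floor. The values are given without explanation. Among T-ALL lines, HPB-ALL was apart for 3 genes: ABCG1 at 4.01 with the others at 7.64 to 9.09, ABCB4 at 5.40 with the others at 4.12 to 4.58, and ABCA7 at 5.21 with the others at 5.73 to 6.13. ALL-SIL was apart for ABCC4, at 4.0 with the others at 6.43 to 7.77, and for ABCC8, at 7.19 with the others at 4.15 to 4.72. Molt4 was apart for ABCG2, at 6.57 with the others at 4.0 to 4.85. Jurkat was apart for ABCD4, at 7.05 with the others at 7.54 to 7.75. Among BCP-ALL lines, Nalm6 was apart for ABCA12, at 7.40 with the others at 4.09 to 4.28.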

How the results depend on the processing

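The number of ABC genes higher in T-ALL was 2. It was 1, ABCC10, with Nalm16 and Nalm30 averaged or left out, with P12-ICHIKAWA and TALL-1 averaged, with arrays shifted to a common median, with the most variable probe set, with no filter and with the exact permutation test, 4 (ABCC1, ABCC10, ABCD3 and ABCG1) with the mean of all probe sets, and 1 to 3 with single lines left out. The number lower in T-ALL was 1. By limma it was 0 with Nalm16 and Nalm30 averaged or left out, with P12-ICHIKAWA and TALL-1 averaged, with a common median, with a filter on the mean and with no filter, and 0 to 2 with single lines left out; at an unadjusted p under 0.05 it was 5 in the reported fit, and the exact permutation test called ABCA3. Over all genes 958 passed, against 614 with P12-ICHIKAWA and TALL-1 averaged. Genes at least 1 log2 unit above the array median numbered 7 in every line and 19 in no line, against 11 and 12 above it, and with single lines left out these were 11 to 12 and 12 to 13. Differences that turned sign were all far from the threshold. ABCA1 ran from -0.62 to 0.53 with single lines left out, above 0 without 697 (0.27) or REH (0.53). ABCC4 ran from -0.38 to 0.29 with single lines left out. Without Nalm16 and Nalm30, ABCA1 was -1.08, ABCC4 was -0.57 and ABCB1 was 0.15. ABCC5 was -0.048 with Nalm16 and Nalm30 averaged, -0.126 with them left out, -0.013 with a common median, -0.0202 with the mean of probe sets, -0.283 with the most variable one, -0.134 with quantile normalization, and -0.0715 to 0.0838 with single lines left out, below 0 without 697 (-0.0188), Nalm16 (-0.0452), Nalm30 (-0.0509), ALL-SIL (-0.0559), CCRF-CEM (-0.0612) or Molt4 (-0.0715). ABCF2 was -0.0166 without Nalm16 and Nalm30, -0.0619 with the mean of probe sets, -0.427 with the most variable one, -0.0224 with quantile normalization, and -0.0146 to 0.223 with single lines left out. The cause of these changes was not tested. No paired analysis was possible because the lines of the lineages share no replicate number or donor in the labels.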
